A study of Danio rerio with 4 samples.

Results

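The transcription factor genes gata1a, klfd, tal1, lmo2, ldb1a and meis1 were followed in Gata1+ cells sorted from zebrafish embryos whose green fluorescent protein is driven by the gata1 promoter (line gata1:GFP). They were chosen by name, as regulators of red cell and blood progenitor identity, and are 6 of the 14417 genes in the expression files. RNA-seq libraries came from embryos injected as fertilized eggs with a morpholino oligonucleotide (MO) against foxo3b and collected at 24 hours post fertilization (hpf), from embryos given a standard MO (control) at 24 hpf, and from foxo3b MO and control embryos at 48 hpf. Each of the 4 groups had 1 library, so replicate error is unknown and no test was run; every difference below describes these libraries. The sources used here give neither the number of embryos per library nor the site bound by the MO.

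Most of these genes encode parts of the complex that GATA1 and TAL1 form on red cell genes. GATA1 is the zinc finger factor that drives red cell genes, and TAL1 is a basic helix-loop-helix factor that binds E-boxes together with E-proteins such as TCF3. LMO2, which does not itself bind DNA, bridges TAL1 to GATA factors, and LDB1 is the adaptor that joins LMO2-bound complexes to each other and brings enhancers and promoters together. KLF1, encoded by klfd in the files, binds CACCC boxes in globin and other red cell genes, and MEIS1 is a homeodomain factor that works with PBX and HOX proteins in blood progenitors. TAL1 and LMO2 also act in endothelium, and LDB1 and MEIS1 in the nervous system and other embryonic tissues.

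Levels are FPKM (fragments normalised for transcript length and library size) as deposited by the authors, and may be compared between genes. Each of the 6 genes had a locus of its own in the files, on the Zv9 assembly. On chromosome 11 gata1a spanned 26345472 to 26352417, klfd lay on chromosome 6 at 9655261 to 9666655, tal1 on chromosome 22 at 16757556 to 16767301 and lmo2 on chromosome 18 at 36726268 to 36733954. Chromosome 13 held ldb1a at 28955773 to 28967499 and meis1, now named meis1b, at 5167329 to 5245946. All 6 passed the floor of a mean of 1 FPKM over the 4 libraries, as did 11971 genes in all.

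The libraries were not pure red cell RNA. Total FPKM was 1576674 in foxo3b MO and 2288669 in control at 24 hpf, then 1505447 in foxo3b MO and 2402299 in control at 48 hpf. Counts were not used here, and the absolute depth is not known from FPKM. Single-read steps in the lowest FPKM values placed the depth of foxo3b MO at 24 hpf at 0.540 of that of control for 205 of 652 low genes, but a depth of 1.08 held for 201, so relative depth is not used below. Summed FPKM was 27718 to 42203 for 16 epidermis markers, 9025 to 47534.5 for 17 muscle markers, 735 to 1610 for 20 neural markers, 144 to 182 for 18 endothelial markers, 69.0 to 550 for 13 myeloid markers and 31.2 to 41.4 for 9 thrombocyte markers. A list of 29 genes of red cell maturation, globins included, summed to 4303 FPKM in foxo3b MO and 16418 FPKM in control at 24 hpf, then to 10757 FPKM in foxo3b MO and 26881 FPKM in control at 48 hpf. Globins made up most of each sum. Counted by gene, 5 of the 29 were higher in foxo3b MO than in control at 24 hpf and 11 at 48 hpf. Of the 11971 genes past the floor, 8161 were higher in foxo3b MO at 24 hpf and 5779 at 48 hpf. The one marker at 0 in any library was itga2b, the defining thrombocyte integrin, which reached at most 0.104 FPKM. In such mixed RNA, fewer cells of a type and less RNA per cell cannot be told apart. The foxo3b transcript stood at 46.5 FPKM in foxo3b MO and 6.40 FPKM in control at 24 hpf, then at 50.3 FPKM in foxo3b MO and 38.1 FPKM in control at 48 hpf; this level cannot check a translation-blocking MO.

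**Figure D1:**
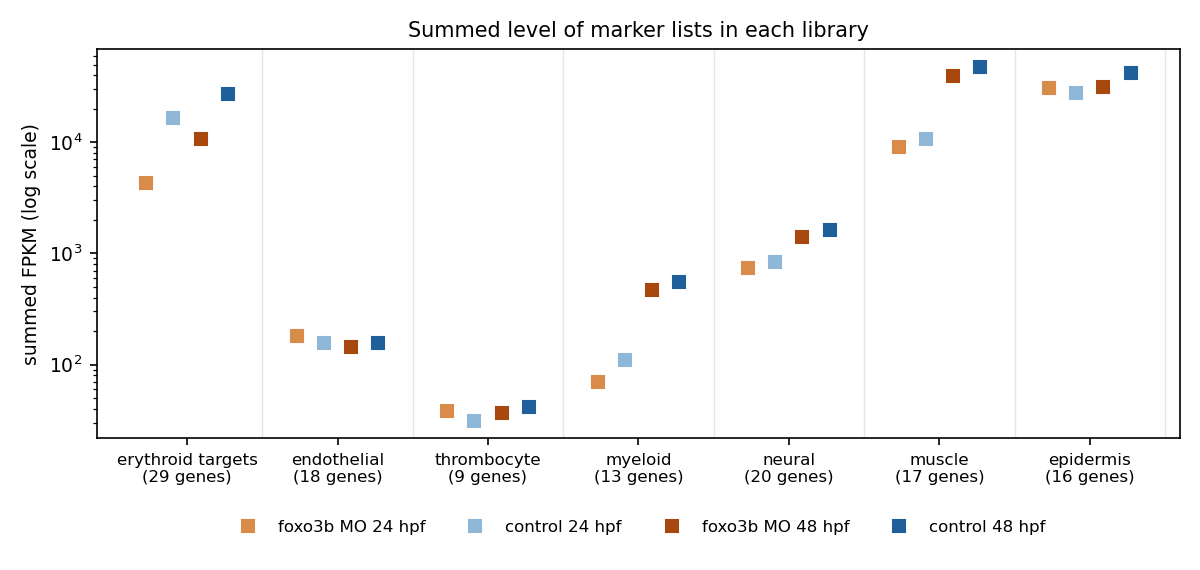
Summed FPKM (log axis) of red cell genes and of markers of 6 other cell types, 1 point per library, with the number of matched genes under each name. The red cell sums, made up mostly of globins, are lower in foxo3b MO than in control at both stages. Epidermis and muscle markers sum to at least 9025 FPKM in every library.

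The 6 genes spanned a wide range of levels in the same order at 24 hpf, from meis1 at the top through ldb1a, lmo2, tal1 and gata1a to klfd. The homeodomain gene meis1 stood at 84.1 FPKM in foxo3b MO and 83.8 FPKM in control at 24 hpf, then at 83.5 FPKM in foxo3b MO and 85.3 FPKM in control at 48 hpf, above 90.1% to 90.6% of all genes in each library. By contrast the master regulator gata1a, whose promoter marks the sorted cells, stood at 6.30 FPKM in foxo3b MO and 8.23 FPKM in control at 24 hpf, then at 4.33 FPKM in foxo3b MO and 2.49 FPKM in control at 48 hpf. It lay above 42.3% of genes in foxo3b MO and 51.8% in control at 24 hpf, and above 33.1% in foxo3b MO and 24.2% in control at 48 hpf. At 48 hpf klfd stood above gata1a in both libraries, and in control ldb1a stood above meis1. The order of lmo2 over tal1, between these extremes, was the same in all 4 libraries.

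**Figure D2:**
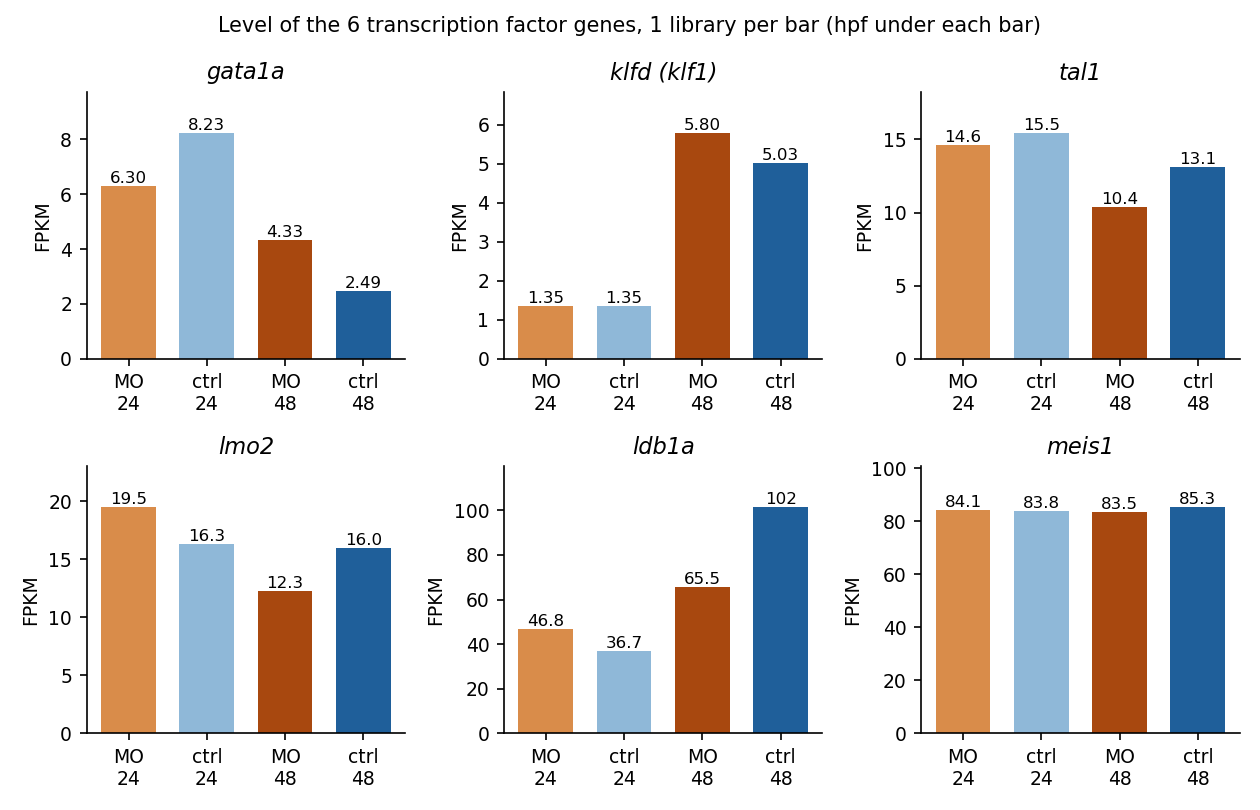
FPKM of each of the 6 genes on linear axes from 0, with 1 bar for each library and the hpf beneath it. The bars of meis1 lie between 83.5 and 85.3 FPKM, gata1a and klfd run in opposite directions between stages, and ldb1a is highest in control at 48 hpf.

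Comparing foxo3b MO with control at 24 hpf asks whether the early regulators differed when foxo3b was targeted. None of the 6 genes was 2-fold apart, where 5.05% of the 11971 genes were 2-fold apart in either direction. Log2 folds were taken after adding 1 FPKM, and their median over all genes was 0.19. The GATA factor gene gata1a stood at -0.34, a value below which 11.1% of all genes lay. With totals set equal between libraries it came to 0.13, but the median over all genes then came to 0.65. The LIM adaptor gene ldb1a, at 46.8 FPKM in foxo3b MO and 36.7 FPKM in control, had a log2 fold of 0.34. Its bridging partner lmo2, at 19.5 FPKM in foxo3b MO and 16.3 FPKM in control, had one of 0.25. Of all genes, 65.7% had a lower log2 fold than ldb1a and 56.3% a lower one than lmo2. Both stayed positive on each scaling tried, but came to 0.11 and 0.03 when libraries were scaled by the median of gene ratios. TAL1's own gene stood at 14.6 FPKM in foxo3b MO and 15.5 FPKM in control, a log2 fold of -0.08 that equal totals turned to 0.43. The remaining members klfd (1.35 FPKM in both libraries) and meis1 had log2 folds of 0.00 and 0.01, which turned to -0.13 and -0.23 when libraries were scaled by the median of gene ratios.

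At 48 hpf the same comparison again found none of the 6 genes 2-fold apart, where 5.59% of all genes were, with a median log2 fold over all genes of -0.02. The largest differences were in opposite directions. In foxo3b MO gata1a was 1.74-fold as high as in control, and its log2 fold, after adding 1 FPKM, was 0.61. The log2 fold of ldb1a, at 65.5 FPKM in foxo3b MO and 102 FPKM in control, was -0.63. Of all genes, 92.4% had a lower log2 fold than gata1a and 9.91% a lower one than ldb1a. The gata1a value was positive on each scaling and came to 1.13 with equal totals, whereas the ldb1a value then came to 0.04. Equal totals also moved the median over all genes to 0.60. The paired partners tal1 and lmo2 were close to each other, at 10.4 FPKM in foxo3b MO against 13.1 FPKM in control and at 12.3 FPKM in foxo3b MO against 16.0 FPKM in control, with log2 folds of -0.31 and -0.36, which equal totals turned to 0.31 and 0.27. The red cell factor gene klfd stood at 5.80 FPKM in foxo3b MO and 5.03 FPKM in control, and meis1 differed by -2.19%, a log2 fold of -0.03 that equal totals turned to 0.63.

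The foxo3b MO log2 fold at 48 hpf minus that at 24 hpf was 0.95 for gata1a and -0.97 for ldb1a. For lmo2 it was -0.60, for tal1 -0.23, for klfd 0.17 and for meis1 -0.04. The signs for gata1a, klfd, ldb1a and lmo2 were the same on each scaling tried, with gata1a between 0.95 and 1.17 and ldb1a between -0.97 and -0.72 across them. Those for tal1 and meis1 turned with median-ratio scaling, and that for meis1 also with equal totals, to 0.097. None of the members had foxo3b MO log2 folds of opposite sign at 24 and 48 hpf under every pseudocount and scaling. Adding 5 FPKM in place of 1 FPKM gave 0.55 for gata1a and -0.91 for ldb1a, and adding 0.1 FPKM gave 1.16 and -0.98. Genes of like level give a sense of how common such values were. Of 3768 genes with a mean within 2-fold of that of gata1a, 17.3% had a difference between stages at least as large in size, and of 2260 genes near ldb1a 7.04% did. Counted by direction, gata1a lay above the 95th percentile of its like-level genes, which was 0.70 around a median of -0.35, and above 96.6% of all genes. The ldb1a value lay below the 5th percentile of its own, which was -0.90 around a median of -0.04, with 9.62% of all genes lower.

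**Figure D3:**
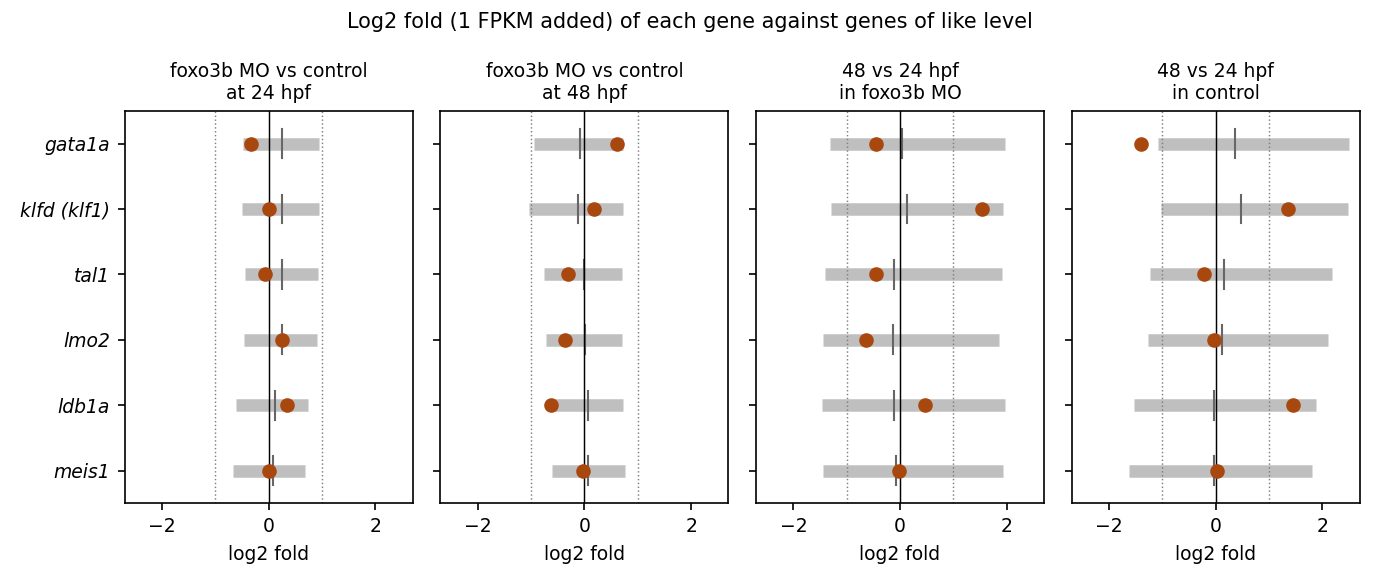
Log2 fold (1 FPKM added) of each gene in the 4 comparisons, as points, with a grey bar from the 5th to the 95th percentile and a tick at the median of genes whose mean level lies within 2-fold of it; dotted lines mark 2-fold. Of the 24 points 22 lie inside the grey bars. A bar by definition leaves out 5% of like-level genes at each end, so 2 points outside is near that share. In control, 48 against 24 hpf, gata1a lies below its bar at -1.40. In foxo3b MO against control at 48 hpf, ldb1a lies just below its bar at -0.63.

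Between stages the genes separated more. In control cells klfd and ldb1a were at least 2-fold higher at 48 hpf than at 24 hpf, where 21.0% of all genes were, and gata1a was at least 2-fold lower, where 8.75% were. In foxo3b MO cells klfd alone among the 6 was past 2-fold, where 27.2% of all genes were past it, 15.7% higher and 11.5% lower, against 29.7% past it in control. The red cell factor gene klfd stood at 5.80 FPKM at 48 hpf and 1.35 FPKM at 24 hpf in foxo3b MO, 4.29-fold as high, and at 5.03 FPKM at 48 hpf and 1.35 FPKM at 24 hpf in control, 3.74-fold as high. Its mean of 3.38 FPKM was the lowest of the 6.

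For gata1a the 48 hpf level was 0.687-fold that of 24 hpf in foxo3b MO and 0.302-fold in control. After adding 1 FPKM the log2 folds were -0.45 in foxo3b MO and -1.40 in control. In control 4.25% of all genes had a lower log2 fold, and in foxo3b MO 30.3% did. The adaptor gene ldb1a was 1.40-fold as high at 48 hpf in foxo3b MO and 2.77-fold as high in control. Neural markers, of a tissue that also uses LDB1, had sums of 1406 FPKM at 48 hpf and 735 FPKM at 24 hpf in foxo3b MO, and of 1610 FPKM at 48 hpf and 842 FPKM at 24 hpf in control. Much of this lay in the neuronal gene stmn1b, without which the sums were 835 FPKM at 48 hpf and 692 FPKM at 24 hpf in foxo3b MO, and 884 FPKM at 48 hpf and 782 FPKM at 24 hpf in control. Of the 20 markers 14 had a log2 fold above 0 between stages in foxo3b MO and 14 in control. Over all 11971 genes past the floor, 5840 did in foxo3b MO and 7038 in control. The part of the neural markers in the ldb1a values was not tested. For gata1a and ldb1a the stage difference was larger in control than in foxo3b MO, and for lmo2 it was larger in foxo3b MO, with log2 folds of -0.63 in foxo3b MO and -0.03 in control. The endothelial markers, which share tal1 and lmo2 with blood, summed to 144 FPKM at 48 hpf and 182 FPKM at 24 hpf in foxo3b MO, and to 157 FPKM at 48 hpf and 155 FPKM at 24 hpf in control. The sums thus lay in the same order over the libraries as lmo2 at its extremes. Both were highest in foxo3b MO at 24 hpf and lowest in foxo3b MO at 48 hpf, whereas tal1 was lowest in the same library but highest in control at 24 hpf. Counted by gene, 7 of the 17 endothelial markers past the floor had a log2 fold above 0 between stages in foxo3b MO and 7 in control. Beside them stand the 5840 and 7038 of all 11971 genes given above. In control vsg1 (now plvapb) stood at 35.8 FPKM at 48 hpf and 9.69 FPKM at 24 hpf. There cdh5 stood at 21.1 FPKM at 48 hpf and 6.67 FPKM at 24 hpf, so the near-equal control sums leaned on a few genes. The part of the endothelial markers was not tested. The directions between stages held on each scaling for gata1a, klfd, ldb1a, tal1 and lmo2, and those of meis1 turned.

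Ratios of genes within a library do not depend on how libraries are scaled. In mixed RNA they do depend on which cells are present, so they do not give the balance of the factors within a cell. For each gata1a transcript, in FPKM, there were 7.43 of ldb1a in foxo3b MO and 4.46 in control at 24 hpf, then 15.1 in foxo3b MO and 40.8 in control at 48 hpf. The foxo3b MO ratio was thus 1.67-fold that of control at 24 hpf and 0.370-fold at 48 hpf. The ratio of lmo2 to gata1a was 3.10 in foxo3b MO and 1.98 in control at 24 hpf, then 2.83 in foxo3b MO and 6.42 in control at 48 hpf, and that of tal1 to gata1a 2.32 in foxo3b MO and 1.88 in control at 24 hpf, then 2.40 in foxo3b MO and 5.27 in control at 48 hpf. In foxo3b MO the 48 hpf ratio of lmo2 was 0.914-fold and that of tal1 1.04-fold the 24 hpf ratio, while in control they were 3.24-fold and 2.80-fold. The ratio of klfd to gata1a was 1.34 at 48 hpf and 0.215 at 24 hpf in foxo3b MO, and 2.02 at 48 hpf and 0.163 at 24 hpf in control.

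Of the 15 pairs among the 6 genes, none had ratios 2-fold apart between foxo3b MO and control at 24 hpf, and at 48 hpf 3 did, those of gata1a with ldb1a, lmo2 and tal1. Over all pairs of genes past the floor and above 0 in each library, 20.1% were 2-fold apart at 24 hpf and 19.9% at 48 hpf, so 3 of 15 is near the share of all pairs. Pairs share genes, so these are not separate observations. Between stages 7 pairs were 2-fold apart in foxo3b MO, where 51.0% of all pairs were, and 11 in control, where 53.7% were. The ratio of tal1 to lmo2 stayed between 0.749 and 0.949 in all 4 libraries. Ratios to meis1 also stayed within 2-fold, between 0.125 and 0.185 for tal1 and between 0.147 and 0.232 for lmo2.

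**Figure D4:**
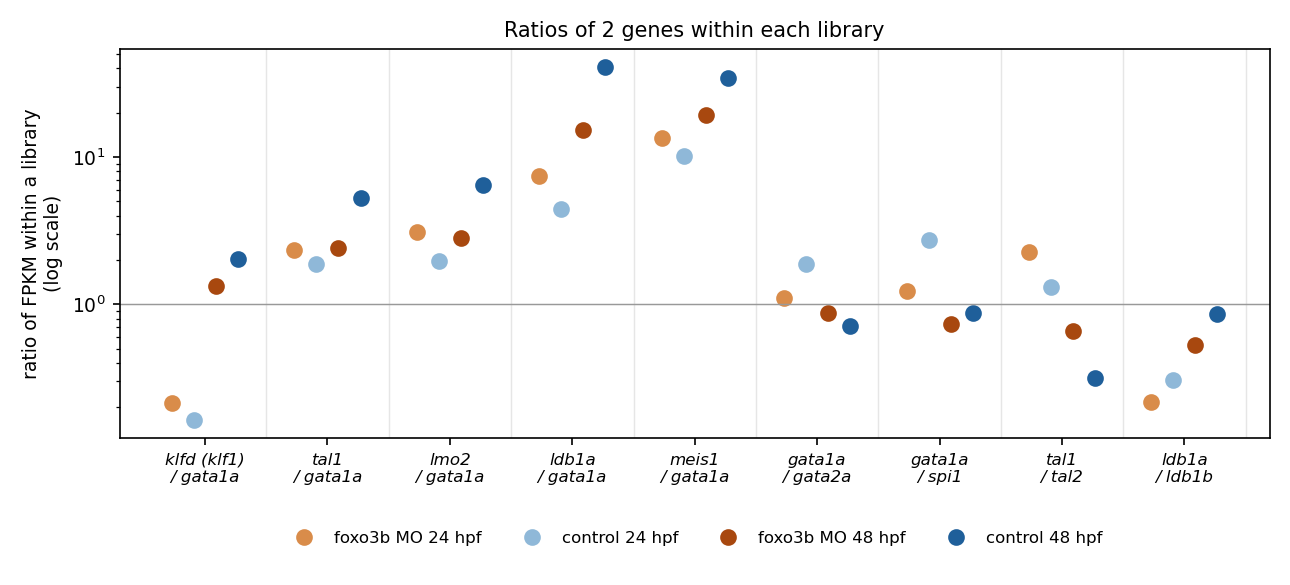
Ratio of the FPKM of 2 genes within a library (log axis), 1 point per library. Shown are each member but gata1a over gata1a, and gata1a or another member over a related gene. At 48 hpf the ratios of klfd, tal1, lmo2, ldb1a and meis1 to gata1a are lower in foxo3b MO than in control, and at 24 hpf they are higher. These ratios all share gata1a as their denominator.

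GATA2, which precedes GATA1 in progenitors, is encoded in part by gata2a, at 5.73 FPKM in foxo3b MO and 4.35 FPKM in control at 24 hpf, then at 4.93 FPKM in foxo3b MO and 3.50 FPKM in control at 48 hpf. The ratio of gata1a to gata2a was 1.1 in foxo3b MO and 1.89 in control at 24 hpf, then 0.878 in foxo3b MO and 0.710 in control at 48 hpf. The myeloid factor gene spi1 (now spi1b), whose protein PU.1 opposes GATA1, stood at 5.07 FPKM in foxo3b MO and 2.99 FPKM in control at 24 hpf, then at 5.87 FPKM in foxo3b MO and 2.86 FPKM in control at 48 hpf. The gata1a to spi1 ratio was 1.24 in foxo3b MO and 2.75 in control at 24 hpf, then 0.738 in foxo3b MO and 0.869 in control at 48 hpf. Myeloid markers summed to 69.0 FPKM in foxo3b MO and 109 FPKM in control at 24 hpf, then to 470 FPKM in foxo3b MO and 550 FPKM in control at 48 hpf. Without lyz, the lysozyme gene that was the most abundant of the 13, they summed to 63.3 FPKM in foxo3b MO and 75.8 FPKM in control at 24 hpf, then to 256 FPKM in foxo3b MO and 168 FPKM in control at 48 hpf. The sum was thus lower in foxo3b MO at both stages, but at 48 hpf it was higher there without lyz, as spi1 was. At 24 hpf the median log2 fold of the 13 markers was 0.07, with 7 above 0, beside 0.19 and 8161 of all 11971 genes. At 48 hpf it was 0.30, with 9 above 0, beside -0.02 and 5779 of all genes. The part of the myeloid markers in the spi1 values was not tested.

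The second LDB1 gene, ldb1b, was the most abundant of the other erythroid factors, at 215 FPKM in foxo3b MO and 119 FPKM in control at 24 hpf, then at 124 FPKM in foxo3b MO and 118 FPKM in control at 48 hpf. The ratio of ldb1a to ldb1b was therefore 0.218 in foxo3b MO and 0.309 in control at 24 hpf, then 0.529 in foxo3b MO and 0.860 in control at 48 hpf. The tal1 relative tal2, a basic helix-loop-helix gene also active in the midbrain, stood at 6.47 FPKM in foxo3b MO and 11.9 FPKM in control at 24 hpf, then at 15.8 FPKM in foxo3b MO and 41.1 FPKM in control at 48 hpf. On the deposited scale tal2 was the one member of a list of 21 progenitor factors past the floor that was 2-fold lower with the foxo3b MO at 48 hpf. None was 2-fold higher, where 3.67% of all genes were lower and 1.92% higher. In that list hhex, a homeobox gene of blood and endothelium, stood at 20.9 FPKM in foxo3b MO and 13.1 FPKM in control at 48 hpf, and etv2, which specifies both lineages, at 8.14 FPKM at 48 hpf and 22.3 FPKM at 24 hpf in control. The definitive stem cell factor gene runx1 ranged over the 4 libraries between 0.272 and 0.345 FPKM.

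The list of other erythroid factors matched 20 of 24 names, of which 19 passed the floor. At 24 hpf 1 of these was 2-fold higher in foxo3b MO, where 3.12% of all genes were, and none was 2-fold lower, with a median log2 fold of 0.21 beside 0.19 over all genes. That gene was tcf3 (now tcf3a), an E-protein partner of TAL1, at 31.7 FPKM in foxo3b MO and 14.1 FPKM in control. At 48 hpf none was 2-fold apart, where 5.59% of all genes were, with a median of 0.07 beside -0.02 over all genes, and the repressor gene etv6 stood at 39.0 FPKM in foxo3b MO against 23.0 FPKM in control. Between stages 3 of the 19 were 2-fold higher and 3 lower at 48 hpf in foxo3b MO, where 15.7% and 11.5% of all genes were, and 4 were higher and 2 lower in control, where 21.0% and 8.75% were. These shares are near those of all genes. Among them were both genes for BCL11A, which silences fetal globin in humans and also acts in neurons. In control bcl11ab stood at 22.3 FPKM at 48 hpf and 1.89 FPKM at 24 hpf, and bcl11aa at 14.7 FPKM at 48 hpf and 1.77 FPKM at 24 hpf. The klfd relative klf4 (now klf17), an early blood and hatching gland factor, stood in the reverse order, at 9.61 FPKM at 48 hpf and 29.6 FPKM at 24 hpf in control.

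Of 15 genes for chromatin factors that act with GATA1, none was 2-fold apart between foxo3b MO and control at either stage, where 5.05% of all genes were at 24 hpf and 5.59% at 48 hpf, under 1 gene in 15. Their medians were 0.27 at 24 hpf, beside 0.19 over all genes, and -0.04 at 48 hpf, beside -0.02. The deacetylase gene hdac1 was the most abundant, at 299 to 432 FPKM. Among 12 relatives and partners of meis1, none was 2-fold apart at 24 hpf. At 48 hpf 2 of the 12 were at least 2-fold lower with the foxo3b MO on the deposited scale, where 3.67% of all genes were. The median log2 fold of the 12 was -0.20, and with equal totals 0.44, beside 0.60 over all genes. The 2 lower genes were the PBX genes pbx1a, at 38.6 FPKM in foxo3b MO and 94.0 FPKM in control, and pbx3b, at 41.8 FPKM in foxo3b MO and 85.1 FPKM in control. In control pbx1a stood at 94.0 FPKM at 48 hpf and 6.39 FPKM at 24 hpf, a log2 fold of 3.68, beside meis1 at 0.03. The neural sum was also higher at 48 hpf, as given above, and their part in the PBX values was not tested.

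**Figure D5:**
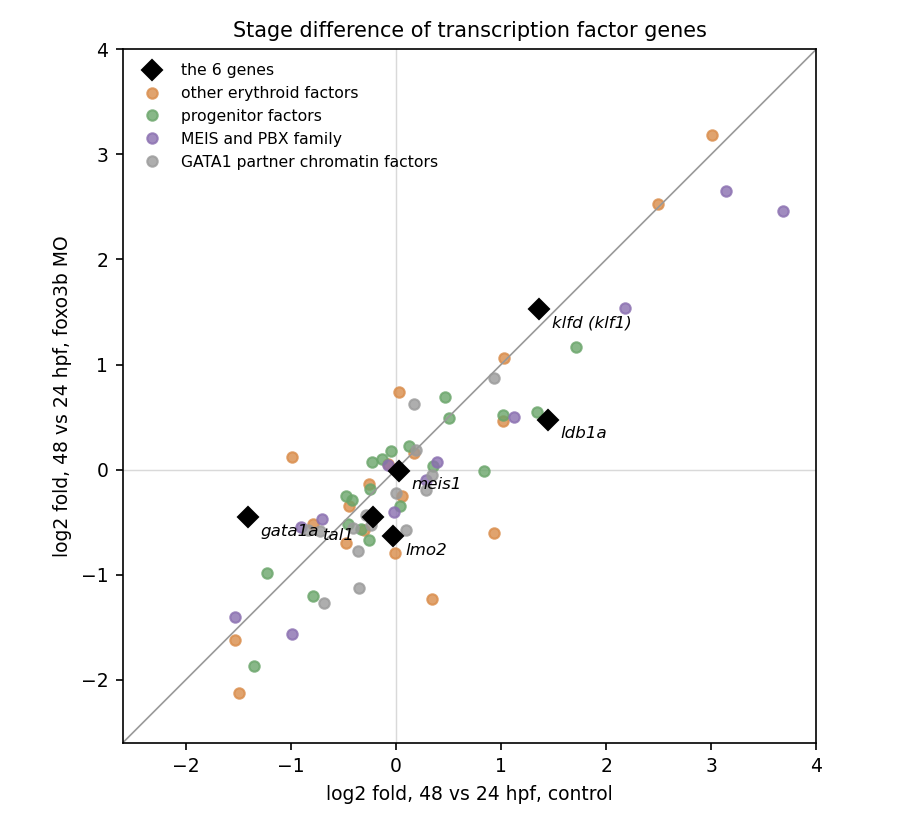
Log2 fold at 48 against 24 hpf (1 FPKM added) in control on the horizontal axis and in foxo3b MO on the vertical axis, for the 6 genes (diamonds) and 4 lists of related factors (dots); the line marks equal folds. The gata1a diamond lies above the line, at -1.40 and -0.45, and that of ldb1a below it, at 1.44 and 0.48.

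The red cell list holds many genes known to be activated by GATA1 and KLF1. All 29 of its genes were past the floor. At 24 hpf 9 were 2-fold lower and none higher in foxo3b MO, where 1.94% of all genes were 2-fold lower. The median log2 fold of the list was -0.44, beside 0.19 over all genes, and equal totals turned these to 0.09 and 0.65. At 48 hpf 4, all of them globins, were 2-fold lower, where 3.67% of all genes were. The list median was then -0.10, beside -0.02 over all genes, and equal totals turned these to 0.49 and 0.60. For the alpha globin hbae3 the 48 hpf values were 3710 FPKM in foxo3b MO and 11507 FPKM in control, while gata1a was higher in foxo3b MO and klfd stood at 5.80 FPKM in foxo3b MO and 5.03 FPKM in control. The heme synthesis gene hmbsa, in contrast, was the named gene whose pattern over the 4 libraries, after adding 1 FPKM, was most like that of gata1a.

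Likeness was measured as the root mean square difference of log2 values after adding 1 FPKM, centred on each gene's mean over the 4 libraries. It was taken among 9197 named genes. The added 1 FPKM shrinks differences of low genes such as gata1a and klfd more than those of abundant genes. Without it gata1a spanned 3.31-fold and klfd 4.31-fold over the libraries. Whether the same genes are nearest with other pseudocounts was not checked. The value for hmbsa was 0.04, at 35.9 FPKM in foxo3b MO and 44.8 FPKM in control at 24 hpf, then 27.2 FPKM in foxo3b MO and 17.7 FPKM in control at 48 hpf. Next to gata1a came sfrp5 and setdb2, both at 0.06. Nearest to klfd were rac2, prdx1 and fam184b, all at 0.04, and nearest to ldb1a jazf1a (0.01), ttc39c (0.02) and gnao1a (0.02). The genes tnfaip6 (0.01) and wnt11r (0.03) were among the nearest to tal1. The genes spred1 (0.02), abhd16a (0.02) and ehmt1b (0.03) were nearest to lmo2, and smarcd1 (0.01), ostc (0.02) and tbce (0.02) to meis1. With 4 libraries such likeness is common: 167 genes lay within 0.2 of gata1a, 254 of klfd and 348 of ldb1a. Counts were higher for the members that differed least between libraries, at 1065 for tal1, 1226 for lmo2 and 1674 for meis1. Among the 6 genes themselves tal1 and lmo2 were the closest pair, at 0.12, and gata1a and klfd the farthest, at 1.20.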

How the data were processed

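The files hold FPKM values deposited by the authors, 1 file for each of the 4 libraries. Reads were processed with TopHat and Cufflinks on Zv9, per the submitters' processing notes; the sources used here do not state versions, options or annotation. The log2 of each FPKM value plus 1 was subtracted between libraries for the 11971 genes whose mean reached 1 FPKM, which understates differences of low genes. Genes past 2-fold were counted; no test was run, since each group had a single library. Listed names were matched by symbol or by older names in RefSeq and Ensembl gene tables. Genes of like level had a mean within 2-fold of the member's.

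The members, lists and ratios of gene pairs were chosen with earlier results of these data known. Named genes were the 6 members, foxo3b, the 3 genes most like each member, and from each list the most abundant gene or those with the largest log2 folds, 3 per comparison. The text leaves out some of the genes this rule names. Outside the rule, gata2a, runx1, itga2b, vsg1 and cdh5 were named after their values were seen. Promoter motifs were not analysed here. As alternatives the pseudocount was 0.1 or 5 FPKM, the floor was dropped or set to 5 FPKM, and libraries were scaled by the median of gene ratios, to equal totals, or to equal totals without 75 ribosomal protein genes. Steps were tested on simulated data. Python 3.11.15, numpy 2.4.6, pandas 2.3.3 and matplotlib 3.10.9 were used.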

Additional observations from a re-analysis of the deposited data

How the results depend on the processing

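No paired or additive fit over the stages was run: it would leave 1 residual degree of freedom, taken from the difference between stages. Leaving out a library would leave a group with none. Counts of genes past 2-fold that moved by over 1.5 times are given as higher and lower, foxo3b MO over control at 24 hpf (373 and 232) and 48 hpf (230 and 439), and 48 over 24 hpf in foxo3b MO (1882 and 1376) and control (2509 and 1047). With a pseudocount of 0.1 FPKM they were 778 and 393 at 24 hpf, and 368 higher at 48 hpf. With 5 FPKM they were 121 and 142, 97 and 196, 1004 and 768, and 1343 and 643; none of the 6 genes was then past 2-fold between stages in foxo3b MO and 1, ldb1a, in control. A floor of 5 FPKM gave 259 lower at 48 hpf and 1634 higher in control, and left klfd out, so that 0 of the 5 genes kept were past 2-fold in foxo3b MO. Median-ratio scaling gave 187 and 372 at 24 hpf and 1572 lower in control, and moved the all-gene median at 24 hpf from 0.19 to -0.01. Equal totals gave 2340 and 82 at 24 hpf and 2016 and 132 at 48 hpf, moved those medians to 0.65 and 0.60, and put 1 of the 6 genes, gata1a, past 2-fold at 48 hpf. Without ribosomal protein genes in the totals they were 990 and 134, 728 and 216, and 1720 lower in control. No member's log2 fold past 2-fold changed sign under these alternatives. The lists of related factors moved with the scale too: at 24 hpf the median of the other erythroid factors was 0.72 with equal totals. The causes were not tested.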
